A study of Mus musculus with 6 samples.

Results

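The growth hormone, prolactin and STAT5 axis was followed through 10 genes of the 21700 in the expression table of sorted mouse biliary epithelial cells. The genes were picked by name: the receptors Ghr and Prlr, the transcription factors Stat5a and Stat5b, the feedback genes Cish and Socs2, the repressor Bcl6, and the hormone-responsive Igf1, Igfals and A1bg. They were picked with earlier results of these data known, among them the difference between pregnant and non-pregnant libraries. Their differences between the groups are therefore given as a description, with no p-value. All 10 were above 0 in every library, and 9 of them, all except Prlr, were among the 11412 genes averaging 1 FPKM or more that entered the test. FPKM counts the sequenced fragments of a gene per kilobase of its exons at a common library depth, and levels are compared between genes on that basis. The length is the union of all annotated exons of a gene, so orders and ratios between genes depend on that choice of length.

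The cells came from livers of wild-type (WT) female C57BL/6 mice, and were taken by flow cytometry from the non-parenchymal fraction of enzyme-digested livers. The first group was 3 libraries from non-pregnant mice and the second was 3 libraries from mice pregnant at dpc8 (8 days post coitum). No treatment and no engineered allele is named for either group, and neither the age of the mice nor the antibodies behind the sort are stated in the labels. The labels number the samples of a group but do not say that each was a separate animal; the spread that p-values are based on may therefore be technical.

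Growth hormone and prolactin act through sister receptors of the class I cytokine family. Each receptor carries the kinase JAK2, which phosphorylates STAT5A and STAT5B; these move to the nucleus and bind paired TTC and GAA half-sites in DNA. In the liver the axis is best known in hepatocytes, where it drives production of insulin-like growth factor 1 (IGF1), is switched off by the feedback proteins CIS and SOCS2, and maintains the difference between male and female liver through the pattern of growth hormone release. Prolactin and the placental lactogens of pregnancy signal through the prolactin receptor.

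Library depth lay between 24448312 and 34285323 recovered fragments. Biliary markers were present in all 6 libraries: the summed level of 12 of them was 5130 to 6587 FPKM in the non-pregnant and 7032 to 7488 FPKM in the pregnant libraries, and none was at 0 in all libraries. Most of that sum was Spp1, and the other 11 summed to 1189 to 1403 and to 1422 to 1547 FPKM. In 6 of the 12 biliary markers the groups did not overlap and lay higher in pregnancy, and in 0 lower. Of all tested genes, 9.9% were separate and higher and 12.2% separate and lower. Hepatocyte markers were present in all 6, with a sum over 12 genes of 2460 to 3049 FPKM in the non-pregnant and 2427 to 2765 FPKM in the pregnant libraries. Most of that sum was Alb, and the other 11 summed to 487 to 499 and to 353 to 491 FPKM. The summed level of 12 macrophage and Kupffer cell markers was 2.67 to 10.3 FPKM in the non-pregnant and 44.9 to 120 FPKM in the pregnant libraries. In each of these 12, all 3 pregnant libraries lay above all 3 non-pregnant ones, and none was at 0 in all libraries. The same held for 9.9% of all tested genes and for 12.2% of the genes above 0 that were not tested. Non-pregnant library 2 stood apart in endothelial markers, at a sum of 280 FPKM over 10 genes against 20.1 to 40.2 FPKM in the other 5. Non-pregnant library 3 held the lowest value for 28.5% and the highest value for 35.8% of the tested genes. In bulk samples, fewer cells of a type and less RNA per cell cannot be told apart.

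The promoters of the axis genes show where the STAT5 half-sites lie relative to the transcription start. RefSeq promoters (build GRCm38.p6, 250 bases before to 50 after each start) were given for 9 of the 10 genes, with 17 promoters in all; Socs2 was not among them. The motif searched was TTCNNNGAA, which reads the same on both strands. It was found in 7 promoters of 5 genes: Cish, Prlr, A1bg, Bcl6 and Igfals. Of all 32851 promoters of that length, 8.30% held it, and 0.457% held it at least 2 times. Counted by gene, 9.55% of 27025 genes had a promoter with the motif. The windows below run from 250 bases before to 30 after the start, with the motif in capitals. Cish is shown for its tandem pair, A1bg because its level differed most between the groups, the inner Bcl6 promoter for its 3 matches, and Igf1 as a gene with no match in the window.

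Cish, chr9:107296409-107296688, plus strand: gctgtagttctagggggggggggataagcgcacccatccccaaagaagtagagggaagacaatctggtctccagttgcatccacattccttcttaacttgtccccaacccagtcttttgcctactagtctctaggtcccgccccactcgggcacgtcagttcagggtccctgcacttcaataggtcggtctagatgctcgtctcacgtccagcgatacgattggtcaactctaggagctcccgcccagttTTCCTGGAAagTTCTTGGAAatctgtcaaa

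A1bg, chr15:60921241-60921520, minus strand: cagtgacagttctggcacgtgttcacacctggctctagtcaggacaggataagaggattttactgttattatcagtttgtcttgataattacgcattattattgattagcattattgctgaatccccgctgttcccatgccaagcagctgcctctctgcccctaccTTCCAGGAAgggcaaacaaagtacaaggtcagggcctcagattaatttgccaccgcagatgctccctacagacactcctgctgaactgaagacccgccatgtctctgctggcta

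Bcl6, chr16:23981254-23981533, minus strand: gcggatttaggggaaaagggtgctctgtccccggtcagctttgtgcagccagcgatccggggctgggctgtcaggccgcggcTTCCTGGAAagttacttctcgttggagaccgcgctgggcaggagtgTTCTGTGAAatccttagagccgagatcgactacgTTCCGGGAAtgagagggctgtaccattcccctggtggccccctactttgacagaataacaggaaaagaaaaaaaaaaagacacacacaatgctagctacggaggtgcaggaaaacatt

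Igf1, chr10:87860861-87861140, plus strand: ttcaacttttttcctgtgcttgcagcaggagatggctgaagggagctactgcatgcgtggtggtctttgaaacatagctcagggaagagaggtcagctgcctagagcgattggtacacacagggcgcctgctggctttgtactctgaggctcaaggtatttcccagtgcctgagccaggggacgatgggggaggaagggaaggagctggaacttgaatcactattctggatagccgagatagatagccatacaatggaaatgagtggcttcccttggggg

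In Cish the matches TTCCTGGAA and TTCTTGGAA began at bases 1 and 12 of the transcript, with 2 bases between them. The A1bg promoter held TTCCAGGAA beginning at base -84. Bcl6 held TTCCTGGAA, TTCTGTGAA and TTCCGGGAA at -168, -122 and -88 of its inner promoter, and TTCTCAGAA at -118 of its outer one. Prlr had 1 match in 1 of its 3 promoters, TTCTAGGAA at -110. Igfals had TTCTCAGAA at -236 of one promoter and TTCCTAGAA at -58 of another. No match lay in the windows of Igf1, Ghr, Stat5a or Stat5b. A match describes letters in the window and not binding, and no binding data were used here.

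In non-pregnant libraries the order of mean levels ran from Bcl6 at 25.8 FPKM through Stat5b, Cish, Igf1, Stat5a, Socs2, Ghr and Igfals to Prlr at 0.188 and A1bg at 0.0226 FPKM. Neighbours whose ranges overlapped were Cish and Igf1, Igf1 and Stat5a, and Ghr and Igfals; every other neighbouring pair was separate. In pregnant libraries the order was Bcl6 at 22.4 FPKM, Stat5b, Cish, Igf1, Socs2, Stat5a, A1bg, Igfals, Ghr and then Prlr at 0.306 FPKM. There the ranges of Cish and Igf1, of Stat5a and A1bg, and of Igfals and Ghr overlapped. A1bg moved from the last place to the seventh, and Stat5a and Socs2 exchanged places. The median gene above 0 in the table stood at 3.74 FPKM outside pregnancy and 3.69 FPKM at dpc8, so Bcl6, Stat5b, Cish, Igf1, Stat5a and Socs2 lay above the middle in both groups.

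**Figure D1:**
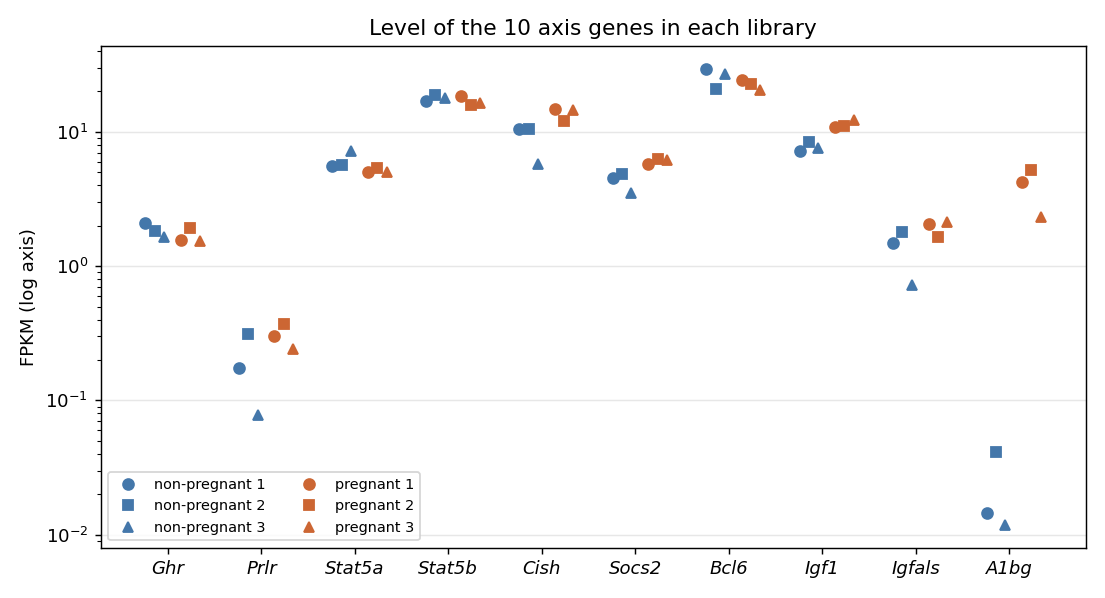
FPKM (log axis) of each of the 10 axis genes in the 3 non-pregnant (blue) and 3 pregnant (orange) libraries, with 1 point per library and the marker shape giving its number. A1bg lies below 0.05 FPKM in the 3 non-pregnant libraries and at 2.30 FPKM or above in the 3 pregnant ones; Ghr, Prlr, Stat5b, Bcl6 and Igfals overlap between the groups.

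Of the 9 tested axis genes, 4 had groups that did not overlap and lay higher in pregnancy (Cish, Socs2, Igf1 and A1bg), and 9.9% of all tested genes did so. Only Stat5a was separate in the other direction, against 12.2% of all tested genes. The median change over the 9 was 0.37, against -0.02 over all tested genes. A change here is the difference of group means of log2(FPKM + 1), pregnant minus non-pregnant, and the added 1 makes it smaller than the true fold for low genes. Because the genes were chosen with this comparison in view, and A1bg reached the filter only through the pregnant group, nothing is read from these counts. Without non-pregnant library 3, 4 genes were separate and higher, beside 14.0% of all tested genes. Without non-pregnant library 2 there were 5, beside 19.4%.

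The receptors stood at low levels and overlapped between the groups. Ghr, the growth hormone receptor (ENSMUSG00000055737, chr15:3317760-3583492, minus strand, build mm10), measured 2.09, 1.83 and 1.66 FPKM outside pregnancy and 1.57, 1.92 and 1.53 FPKM at dpc8, in libraries 1 to 3 of each group. These rested on 350 to 543 fragments a library. The group means were 1.86 ± 0.220 and 1.67 ± 0.214 FPKM (SD, n = 3 each), and the change was -0.10 ± 0.106 (SE). Pregnant library 2 lay inside the non-pregnant range, and the other 2 pregnant libraries lay below all 3 non-pregnant ones.

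Prlr, the prolactin receptor (ENSMUSG00000005268, chr15:10177238-10349180, plus strand), is encoded 6.59 Mb from Ghr on the same chromosome. It was listed at 0.173, 0.313 and 0.0778 FPKM outside pregnancy and 0.303, 0.373 and 0.242 FPKM at dpc8. Its level in every library was under the filter of 1 FPKM. The fragments behind these values were 76, 145 and 42, then 124, 177 and 94. Non-pregnant library 3 was the lowest of the 6, and non-pregnant library 2 lay among the pregnant ones. Group means were 0.188 ± 0.118 and 0.306 ± 0.0657 FPKM (SD, n = 3 each), a ratio of 1.63. Within a library, Ghr exceeded Prlr in FPKM 12.1, 5.85 and 21.3 times in non-pregnant and 5.17, 5.13 and 6.31 times in pregnant libraries. These ratios rest on exon lengths of 9053 bases for Ghr and 15339 for Prlr. The lowest of the non-pregnant ratios lay inside the pregnant range, and the widest came from the library with the fewest Prlr fragments.

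The STAT5 genes lie head to head on chromosome 11, with 8626 bases between their starts. Their transcripts share 608 sequence stretches of 50 bases, 8.21% of those of Stat5a and 11.0% of those of Stat5b, so reads from such stretches cannot be placed with certainty. Stat5b (ENSMUSG00000020919, chr11:100780731-100850724, minus strand), the form known for its role downstream of growth hormone in liver, measured 16.9, 18.6 and 18.0 FPKM outside pregnancy and 18.5, 15.8 and 16.3 FPKM at dpc8. The means were 17.8 ± 0.883 and 16.9 ± 1.43 FPKM (SD, n = 3 each) with a change of -0.08 ± 0.084 (SE), and the groups overlapped.

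Stat5a (ENSMUSG00000004043, chr11:100859351-100885169, plus strand), the form known for its role downstream of prolactin in the mammary gland, measured 5.53, 5.63 and 7.21 FPKM outside pregnancy and 5.04, 5.35 and 5.06 FPKM at dpc8. All 3 pregnant values lay below all 3 non-pregnant ones, with a gap of less than 0.2 FPKM between the nearest. Means were 6.12 ± 0.943 and 5.15 ± 0.174 FPKM (SD, n = 3 each), and the change was -0.20 ± 0.103 (SE). Without non-pregnant library 3, the highest, it was -0.10. In FPKM, Stat5b exceeded Stat5a 2.49 to 3.31 times in non-pregnant and 2.94 to 3.67 times in pregnant libraries, and these ranges overlapped.

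Both feedback genes were higher in all 3 pregnant libraries. Cish (ENSMUSG00000032578, chr9:107296026-107302784, plus strand) encodes CIS, an SH2-domain protein that binds activated cytokine receptors and is a textbook target of STAT5. It measured 10.5, 10.6 and 5.71 FPKM outside pregnancy and 14.8, 11.9 and 14.6 FPKM at dpc8. Non-pregnant library 3 was well under the other 2 of its group, and the lowest pregnant value exceeded the highest non-pregnant one. The means were 8.94 ± 2.80 and 13.8 ± 1.58 FPKM (SD, n = 3 each), a ratio of 1.54. The change was 0.61 ± 0.209 (SE), and without non-pregnant library 3 it was 0.35. Of the exon bases of Cish, 7.46% overlap the antisense Gm17041 and 4.07% the pseudogene Gm17040, both on the other strand. The counting's strand setting is not given, so whether reads there were assigned by strand is not known.

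Socs2 (ENSMUSG00000020027, chr10:95385362-95417180, minus strand), whose protein limits growth hormone receptor signalling, measured 4.56, 4.84 and 3.48 FPKM outside pregnancy and 5.74, 6.23 and 6.13 FPKM at dpc8. Its pregnant values lay within 0.5 FPKM of each other and above every non-pregnant value. Means were 4.29 ± 0.719 and 6.03 ± 0.259 FPKM (SD, n = 3 each), a ratio of 1.41, with a change of 0.42 ± 0.111 (SE). As with Cish, non-pregnant library 3 was the lowest, and without it the change was 0.30.

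Bcl6 (ENSMUSG00000022508, chr16:23965052-23988852, minus strand), a zinc-finger repressor that binds many of the same sites as STAT5, was the most abundant of the 10. It measured 29.5, 21.0 and 26.8 FPKM outside pregnancy and 24.1, 22.6 and 20.4 FPKM at dpc8. Non-pregnant library 2 lay among the pregnant values. Means were 25.8 ± 4.34 and 22.4 ± 1.85 FPKM (SD, n = 3 each), and the change was -0.19 ± 0.128 (SE). It was -0.32 without non-pregnant library 2, where the groups were separate, and -0.09 without non-pregnant library 1.

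Among the targets, Igf1 and A1bg lay higher in every pregnant library and Igfals overlapped. Igf1 (ENSMUSG00000020053, chr10:87858265-87937042, plus strand), the growth factor through which growth hormone exerts much of its effect, measured 7.19, 8.45 and 7.58 FPKM outside pregnancy and 10.8, 11.0 and 12.2 FPKM at dpc8. Every pregnant library exceeded every non-pregnant one by more than 2 FPKM. Between 2040 and 3367 fragments a library stood behind these values. The means were 7.74 ± 0.646 and 11.3 ± 0.782 FPKM (SD, n = 3 each), a ratio of 1.47. The change was 0.50 ± 0.086 (SE) and stayed between 0.45 and 0.56 in all 15 alternative settings.

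Igfals (ENSMUSG00000046070, chr17:24865997-24882010, plus strand) encodes the acid-labile subunit that holds IGF1 in its circulating complex. It measured 1.48, 1.79 and 0.726 FPKM outside pregnancy and 2.06, 1.66 and 2.13 FPKM at dpc8, on 81 to 174 fragments each. Pregnant library 2 lay below non-pregnant library 2, so the groups overlapped. Means were 1.33 ± 0.545 and 1.95 ± 0.258 FPKM (SD, n = 3 each) with a change of 0.37 ± 0.180 (SE), and 0.16 without non-pregnant library 3. The ratio of Igf1 to Igfals was 4.73 to 10.4 in non-pregnant and 5.23 to 6.65 in pregnant libraries, with the value of 10.4 in non-pregnant library 3.

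Leaving out libraries and changing the settings moved Cish and Igfals more than Igf1. The change of Cish lay between 0.35 and 0.74 when 1 library was left out, that of Igfals between 0.16 and 0.51, and that of Igf1 between 0.45 and 0.56. All 4 genes below 0 stayed there when 1 library was left out: Ghr lay between -0.16 and -0.04, Stat5a between -0.26 and -0.10, Stat5b between -0.14 and -0.03, and Bcl6 between -0.32 and -0.09.

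**Figure D2:**
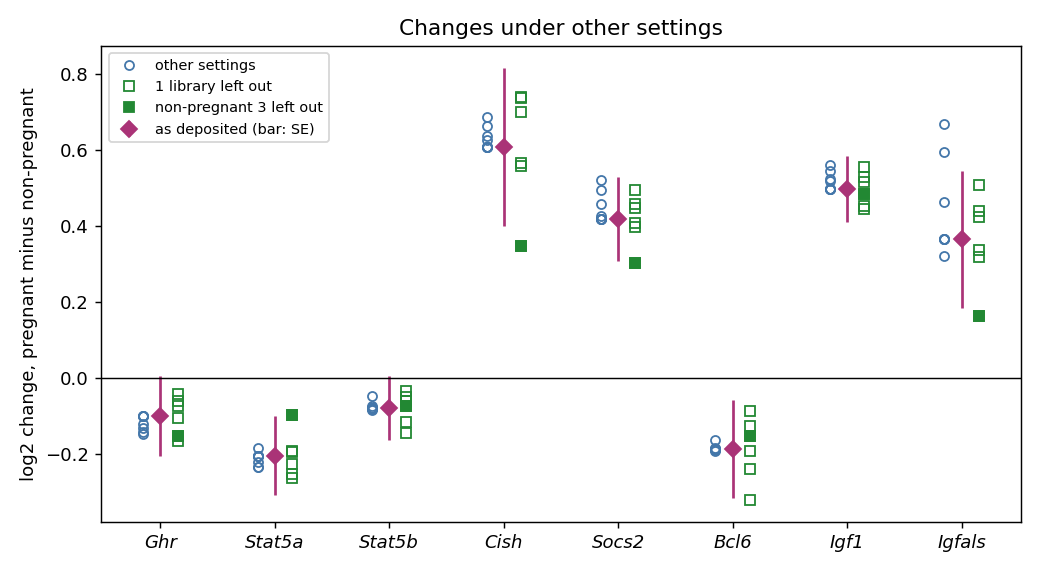
Change of log2(FPKM + 1), pregnant minus non-pregnant, of 8 axis genes as deposited (diamond, bar of 1 SE), under other settings (circles) and with 1 library left out (squares, filled where it is non-pregnant library 3); A1bg is off this scale and Prlr was not tested. Cish drops from 0.61 to 0.35 and Igfals from 0.37 to 0.16 without non-pregnant library 3, and every point keeps the side of 0 of its gene.

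A1bg (ENSMUSG00000022347, chr15:60896859-60923012, minus strand), a secreted plasma glycoprotein of the immunoglobulin superfamily that is female-biased in mouse liver, was near 0 outside pregnancy and at a middling level in pregnancy. It was listed at 0.0145, 0.0413 and 0.0118 FPKM outside pregnancy and 4.21, 5.21 and 2.30 FPKM at dpc8. The fragments were 1, 3 and 1 in the non-pregnant libraries and 269, 386 and 140 in the pregnant ones. Pooled over each group and scaled to depth, 795 against 5 fragments gave a ratio of 182 with a 95% exact (Clopper-Pearson) interval of 77.5 to 561, which covers counting error only. On the log2(FPKM + 1) scale the change was 2.21 ± 0.215 (SE), the largest of the 9. Of its exon bases, 16.5% overlap the antisense gene 4930402D18Rik. The counting's strand setting is not given, so reads of the 2 genes cannot be told apart there.

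Within pregnancy A1bg was highest in library 2 and lowest in library 3. The macrophage and Kupffer cell marker sum was 120, 89.8 and 44.9 FPKM in pregnant libraries 1 to 3 and 7.38, 10.3 and 2.67 FPKM in the non-pregnant ones, so it moved with the group as A1bg did. Its part in the A1bg difference was not tested. Among the hepatocyte markers, Alb, the plasma albumin gene, stood at 1973 to 2550 FPKM outside pregnancy and 2074 to 2274 FPKM at dpc8, and its groups overlapped. Of the other 11, 1 had separate groups and lay higher in pregnancy, with a ratio of means of 1.66, and 3 lay lower, with ratios of 0.409 to 0.871. Of all tested genes, 9.9% were separate and higher and 12.2% separate and lower. The part of the hepatocyte markers in the A1bg difference was not tested either.

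**Figure D3:**
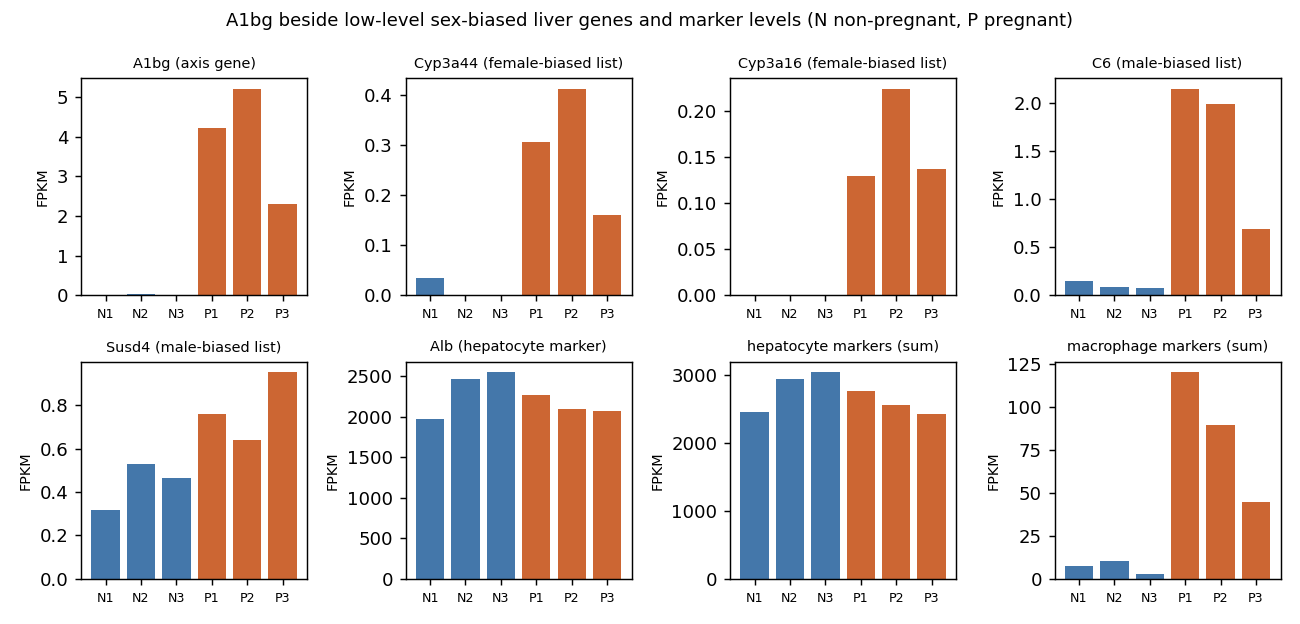
FPKM in non-pregnant (N1 to N3, blue) and pregnant (P1 to P3, orange) libraries for A1bg, 4 low-level genes of the sex-biased lists, the hepatocyte marker Alb, and the sums of 12 hepatocyte and of 12 macrophage and Kupffer cell markers, each on its own axis from 0. The 4 were picked after their values were seen, from untested genes whose groups were separate and higher in pregnancy. That held for 3 of 18 untested female-biased and 2 of 12 untested male-biased genes, and 1 male-biased gene was lower. Over all genes above 0 but under the filter, 12.2% lay higher and 3.74% lower in this way. A1bg, Cyp3a16, Cyp3a44 and C6 are near 0 in the non-pregnant libraries and higher in the 3 pregnant ones. The macrophage sum is 2.67 to 10.3 FPKM in the non-pregnant and 44.9 to 120 FPKM in the pregnant libraries. Alb lies between 1973 and 2550 FPKM in both groups.

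Seen library by library, the deviations of the 10 genes from their own means showed which libraries carried the differences. Non-pregnant library 3 held the lowest value of 5 of the 10 genes (Prlr, Cish, Socs2, Igfals and A1bg), beside 28.5% of all tested genes. Of the 5, Prlr was not tested, and A1bg had 1 fragment in non-pregnant library 1 as well as in library 3. Non-pregnant library 3 held the highest value of Stat5a. In that library Cish lay 0.83 and Igfals 0.59 below the mean of the 6 libraries on the log2 scale, whereas Igf1 lay 0.27 below it, less far than in non-pregnant library 1. Its biliary marker sum was also the lowest, at 5130 FPKM; the part of this in the results was not tested.

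**Figure D4:**
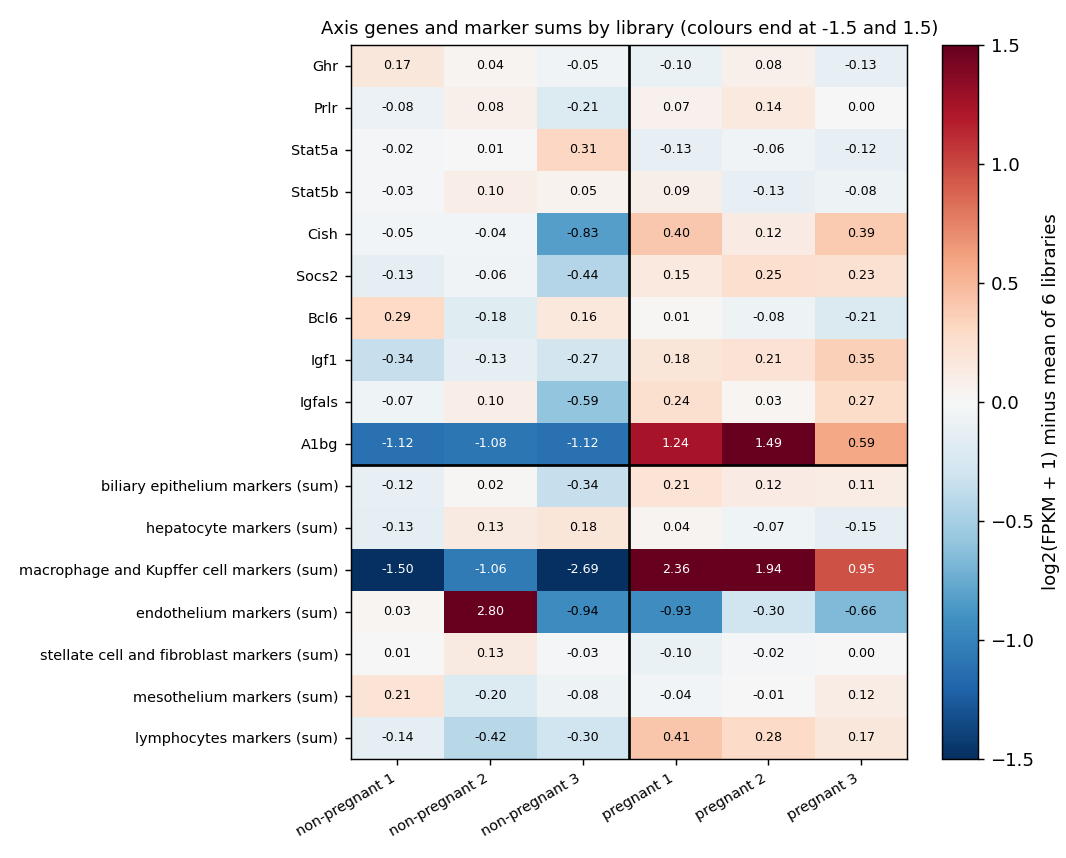
Each cell gives log2(FPKM + 1) minus the mean over the 6 libraries, for the 10 axis genes (upper block) and for the summed level of 7 marker lists (lower block), with red above and blue below the mean. Cish, Socs2, Igf1 and A1bg are below the mean in the 3 non-pregnant and above it in the 3 pregnant libraries; Cish in non-pregnant library 3, at -0.83, lies further down than in libraries 1 and 2, whereas A1bg is at -1.12, -1.08 and -1.12 in the 3.

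The genes whose pattern over the 6 libraries was most like that of an axis gene were taken by Pearson's r of log2(FPKM + 1), as a description over points that share their libraries. For A1bg they were the macrophage-expressed Ctss, Fcna and C1qa, with r of 0.989, 0.987 and 0.984 among 309 genes of sufficient range. For Igf1 they were Hmgn2, Anapc11 and Arl6ip5, with r of 0.987, 0.987 and 0.985. For Socs2 they were Mpped2, Hcn2 and Serpinb6b, with r of 0.999, 0.997 and 0.996, and Mpped2 shared its low value of 1.66 FPKM in non-pregnant library 3. For Ghr they were Mccc1, Utrn and Zfp764, with r of 0.983, 0.975 and 0.975. With 6 libraries, 16 of the 309 genes reached an r of 0.95 with A1bg. The same held for 136 of 5951 with Socs2, 34 of 5934 with Igf1 and 14 of 10899 with Ghr.

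Other genes of the pathway were taken from 10 lists with 129 genes in all, of which 68 were tested. None passed limma's adjusted threshold of 0.05 in either direction, as 10 of all 11412 tested genes (0.0876%) did. An unadjusted p under 0.05 was reached by 15, 8 higher and 7 lower in pregnancy, beside 13.4% of all tested genes. When 1 library was left out, 0 to 133 genes of the whole table passed, with 133 where non-pregnant library 2 was left out. With limma-voom on recovered fragments, 0 of 67 passed and 13 had an unadjusted p under 0.05. In 8 of the 68 the groups did not overlap and lay higher, beside 9.9% of all tested genes, and in 5 lower, beside 12.2%. The median change over the 68 was -0.01, with 31 above and 37 below 0. Of all tested genes, 44.8% had a change above 0, which is the share to set beside the counts by list below.

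The receptor-proximal kinases and adaptors carry the signal from receptor to STAT5. Of 15 genes, 14 were tested, 0 passed, and 11 of the 14 lay below 0 with a median of -0.10. The other 3 lay above 0, as 44.8% of all tested genes did. Jak2, the kinase bound to both receptors, measured 16.1, 13.9 and 18.7 FPKM outside pregnancy and 12.0, 13.4 and 12.1 FPKM at dpc8. Its groups were separate, and the change of -0.35 ± 0.110 (SE) had a limma adjusted p of 0.301. Jak1, the kinase of interferon and gp130 receptors, had a change of -0.26, and Sirpa, a receptor that recruits tyrosine phosphatases, one of 0.28, with overlapping groups in both.

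Of the 15 negative regulators all were tested, 0 passed and 10 lay below 0, with a median of -0.07. The other 5 lay above 0, as 44.8% of all tested genes did. Socs3, the feedback inhibitor induced chiefly through STAT3, measured 70.1, 70.9 and 66.1 FPKM outside pregnancy and 56.5, 54.3 and 54.0 FPKM at dpc8. It was thus lower in the 3 pregnant libraries, where Cish and Socs2 were higher, with a change of -0.32 ± 0.072 (SE) and a limma adjusted p of 0.268. The adaptor Sh2b3, which restrains JAK2, and Pias3, an inhibitor of STAT3, each had a change of -0.23 with separate groups and limma adjusted p of 0.304 and 0.370.

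The other STAT genes were all tested, and 0 of 5 passed. Stat3, the transducer of interleukin-6 signals, had a change of -0.18 with separate groups (limma adjusted p 0.362), and Stat2, a transducer of type I interferon signals, one of 0.23 with overlapping groups.

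No ligand was tested, since all 10 ligand and secretagogue genes lay under the filter. Of these, 4 were at 0 in all libraries: the placental Prl3d1, Prl3b1 and Prl2c2, and Ghrh, the releasing hormone. Gh itself was seen with 1 fragment in non-pregnant library 3 and 4 in pregnant library 1, and Prl with 2 fragments in pregnant library 3. Both are pituitary hormones, and their genes were at 0 in the remaining libraries.

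Other receptors known to signal through STAT5 gave 3 tested genes of 10, and 0 passed. Csf2ra, the alpha chain of the GM-CSF receptor, measured 7.82, 8.86 and 5.36 FPKM outside pregnancy and 10.8, 10.8 and 10.3 FPKM at dpc8, a change of 0.50 ± 0.152 (SE) with a limma adjusted p of 0.301. Il3ra and Lifr had changes of 0.10 and 0.06, and both overlapped. Under the filter, 734 of 5992 genes (12.2%) had groups that did not overlap and lay higher in pregnancy, and 3.74% lay lower. Of the untested receptor genes, 2 were higher: Csf2rb, the shared beta chain, with 18 against 207 fragments, and Il2rb, an interleukin-2 receptor chain, with 22 against 119. Lepr, the leptin receptor, was lower, with 230 against 84 fragments, and its highest value was in non-pregnant library 2. Csf2rb and Il2rb are genes of blood cells, and the macrophage sum was higher in the same libraries; its part was not tested.

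IGF carriers and receptors bind what Igf1 encodes. Of 13 genes, 6 were tested, 0 passed, and 2 lay above and 4 below 0. Igf1r, the IGF1 receptor, stood at 23.2 to 28.6 FPKM outside pregnancy and 26.3 to 27.5 FPKM at dpc8, per length above Igf1 in every library. Insr, the insulin receptor, had a change of -0.34 (limma adjusted p 0.354), and Igfbp5 one of 0.36 ± 0.282 (SE); both overlapped. Igfbp4 had a change of -0.63 ± 0.376 (SE) that followed 1 library: it was 18.2 FPKM in non-pregnant library 2 and 4.91 to 6.70 FPKM in the other 5.

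Other known STAT5 targets gave 10 tested genes of 12, of which 0 passed, 6 lay above and 4 below 0. Myc, the growth regulator, measured 59.6, 69.1 and 67.7 FPKM outside pregnancy and 75.4, 81.1 and 86.4 FPKM at dpc8, a change of 0.30 ± 0.092 (SE) with a limma adjusted p of 0.301. Ccnd1, cyclin D1, differed more, by 1.33 ± 0.439 (SE), but its non-pregnant values of 76.7, 130 and 33.0 FPKM were themselves spread, and the limma adjusted p was 0.308. Onecut1, a hepatobiliary transcription factor known to respond to growth hormone, had a change of 0.28 with separate groups and a limma adjusted p of 0.408. Bcl2l1 and Egfr, with changes of -0.04 and -0.01, did not separate the groups.

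**Figure D5:**
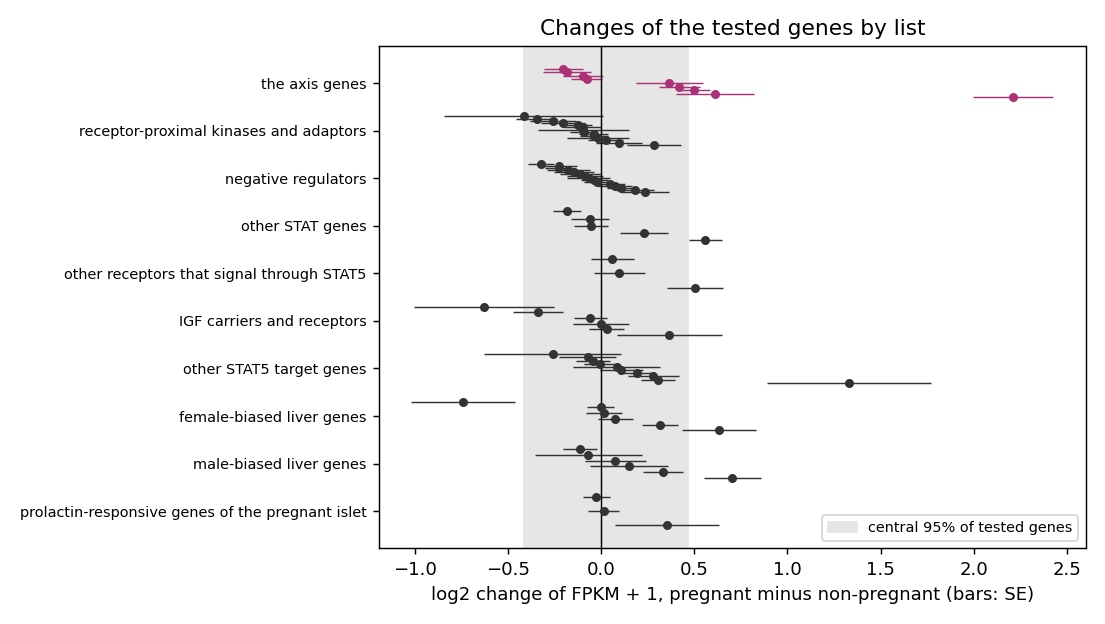
Change of log2(FPKM + 1), pregnant minus non-pregnant, of the 9 tested axis genes (purple) and of the 68 tested genes of the pathway lists (black), with bars of 1 SE and a grey band over the central 95% of all tested genes. The band runs from -0.42 to 0.47; A1bg at 2.21, Cish at 0.61 and Igf1 at 0.50 lie to its right, and no pathway gene passed the test.

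Liver genes that differ between the sexes are the best known readout of growth hormone pulses, and all 6 libraries are from females. The female-biased list held 24 genes, 6 of them tested, and 0 passed. Cux2, a female-specific repressor in liver, measured 2.98, 2.30 and 2.39 FPKM outside pregnancy and 3.53, 3.38 and 3.31 FPKM at dpc8, a change of 0.31 ± 0.098 (SE) with separate groups and a limma adjusted p of 0.301. Hao2, a peroxisomal oxidase, had a change of 0.63 and Hamp2, of the hepcidin family, one of -0.74, both with overlapping groups.

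Of the 18 female-biased genes under the filter, 3 had groups that did not overlap, all higher in pregnancy, and the cytochrome P450 genes Cyp3a44 and Cyp3a16 were among them. Of all genes under the filter, 12.2% did so, which is near the share in the list. Cyp3a44 had 2, 0 and 0 fragments outside pregnancy and then 16, 25 and 8 at dpc8, a ratio by fragments of 28.0 (exact 95% interval 7.34 to 238). Cyp3a16 had 0 fragments in the non-pregnant libraries and 6, 12 and 6 in the pregnant ones, at least 9.14-fold higher against a floor of 3 fragments over the group. The Cyp3a genes have near-identical copies, so which copy the fragments came from is uncertain. As with A1bg, pregnant library 2 was the highest for both genes.

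The male-biased list held 18 genes, 6 of them tested, and 0 passed. Selenbp2, a selenium-binding protein with a near-identical copy in Selenbp1, measured 3.44, 5.20 and 3.14 FPKM outside pregnancy and 7.67, 6.67 and 6.40 FPKM at dpc8. Its change of 0.70 ± 0.154 (SE) had a limma adjusted p of 0.252, and it passed only when non-pregnant library 2 was left out. Cyp2u1, a fatty acid hydroxylase, had a change of 0.33 with separate groups and a limma adjusted p of 0.301, and Nudt7 one of -0.12.

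Under the filter, C6, a complement component, had 34 fragments in non-pregnant and 483 in pregnant libraries, a ratio of 16.2 (exact 95% interval 11.5 to 23.7). Its levels were 0.147, 0.0837 and 0.0799 FPKM, then 2.14, 1.98 and 0.689 FPKM. Among the pregnant libraries C6, A1bg and the macrophage marker sum were all lowest in library 3. C6 and that sum were highest in pregnant library 1, whereas A1bg was highest in library 2. The part of macrophages in the C6 difference was not tested. Susd4, a complement regulator, had 160 against 247 fragments, a ratio of 1.76. Mup20, a urinary protein gene, was lower, on 10 against 4 fragments. Of the 12 male-biased genes under the filter, 2 had separate groups that lay higher in pregnancy (C6 and Susd4) and 1 lower (Mup20). Of all genes under the filter, 12.2% lay higher in this way and 3.74% lower, so nothing is read from these counts.

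The genes that respond to prolactin in the islets of pregnant mice gave 3 tested genes of 7, and 0 passed. Ccnd2, cyclin D2, measured 41.2, 58.5 and 23.2 FPKM outside pregnancy and 47.2, 50.6 and 50.2 FPKM at dpc8, with both extremes in the non-pregnant group. The tumour suppressor Men1 had a change of -0.03. Tph1, the serotonin-synthesis gene that is the best known of this list, was at or under 0.0276 FPKM in every library.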

How the data were processed

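RNA of 6 libraries of sorted biliary epithelial cells was depleted of ribosomal RNA (KAPA HyperPrep, RiboErase), per the labels' protocols. The authors deposited FPKM values per gene and library, and build mm10, STAR 2.7.9a, HTSeq 0.13.5, cutadapt 3.4 and DESeq2 1.30.1 are listed in the submitters' processing notes, without their roles. Each FPKM times the gene's union exon length in GENCODE vM21 was a whole multiple of 1 step per library (tolerance 0.01) for 98.5% to 98.6% of values above 0, which gave fragments per gene; 28 genes had no length. Groups and replicate numbers came from the titles; a description numbers non-pregnant library 3 as 4. Genes averaging 1 FPKM or more were tested as log2(FPKM + 1) with limma 3.58.1 (trended empirical Bayes, R 4.3.3), two-sided, adjusted by Benjamini-Hochberg over all 11412 with a threshold of 0.05. Tables used Python 3.11.15, pandas 2.3.3 and scipy 1.17.1. The fit was tested on simulated data, and 15 alternative settings were run, given in the closing section. Exact intervals cover counting error only, since no molecular identifiers are named. The axis genes, the 10 pathway lists and the 7 marker lists were chosen with earlier results of these data known, so they are no independent evidence. Named were all axis genes, the 3 tested genes of smallest p per list, Gh, Prl, and the 3 most similar genes for A1bg, Igf1, Socs2 and Ghr; some untested genes with separate groups, Igf1r, Bcl2l1, Egfr, Tph1, Spp1, Alb and the ligands at 0 were named after their values were seen. A few genes that the rule picks are not reported here. Coordinates are of mm10 (GRCm38).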

Additional observations from a re-analysis of the deposited data

How the results depend on the processing

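Of 132 alternative values of the 9 tested axis genes, 128 moved by less than the spread within groups and none changed sign. A1bg moved to 4.96 and 3.02 with pseudocounts of 0.1 and 0.5 and to 7.16 with limma-voom on recovered fragments, and Igfals to 0.67 with limma-voom; smaller pseudocounts compress low genes less. Without non-pregnant libraries 2 and 3, left out after seeing the data, 5 and 4 axis genes were separate and higher, beside 19.4% and 14.0% of all tested genes, and 2 and 1 lower, beside 24.4% and 17.7%. Genes passing over the whole table numbered 10 (7 higher, 3 lower). They numbered 0 of 17404 with no filter (2258 at an unadjusted p under 0.05), 4 with a filter at 5 FPKM, 5 with robust empirical Bayes and 1 with limma-voom. Leaving out 1 library gave 0 to 133 such genes: 133 without non-pregnant library 2, 12 without pregnant library 3 and 0 without each of the others (857 to 1419 at an unadjusted p under 0.05). Pathway genes passing numbered 0 to 1 when 1 library was left out, the 1 being Selenbp2 without non-pregnant library 2, and 0 in the other alternatives. With a replicate block 13 genes passed (13 higher, 0 lower, 6 shared with the 10), and 0 pathway genes. The deviations of same-numbered libraries correlated at 0.07, 0.02 and -0.14, so the numbers are not shown to pair the samples. Counting only motifs wholly before the start left 4 axis genes with one in place of 5, beside 8.13% of all genes with a promoter. Prlr rests on 42 to 177 fragments a library, Igfals on 81 to 174, and Gh and Prl on at most 4.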
